A study of Mus musculus with 6 samples.

Results

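Cell division genes were examined in bulk RNA from mouse aortic arches, as 39 genes named for their roles in DNA replication and mitosis. They were chosen by name, with earlier results of these data known. All 39 were among the 14298 genes listed in the deposited table. The S-phase genes numbered 12 and the mitotic genes 27. All animals were adult C57/BL6 mice with the ApoE-/- genotype, which makes them prone to atherosclerosis, and carried RBPJflox/flox alleles of Rbpj, which encodes the transcription factor that Notch receptors act through. The 3 control libraries (S591, S592 and S594) came from ApoE-/-;RBPJflox/flox animals without a recombinase. The 3 knockout libraries (S595, S598, S599) came from ApoE-/-;RBPJflox/flox;Cdh5-CreERT animals, whose recombinase is switched on by tamoxifen and driven by the promoter of an endothelial cadherin. Both groups received tamoxifen for 1 week at 8 weeks of age and then a high-fat diet for 6 weeks. The groups therefore differed in the presence of the recombinase as well as in the deletion, which is directed to endothelial cells. RNA was taken from the whole arch, so division genes were read from every cell type in it, and in bulk RNA fewer dividing cells and less RNA per dividing cell cannot be told apart.

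A cell that commits to divide passes the restriction point in G1, when cyclin-dependent kinases release E2F factors from the RB family, and E2F then raises the genes of DNA synthesis. Genes of mitosis come on later, in G2, through the MuvB complex together with B-Myb and FOXM1. The adult arterial wall divides little, and in atherosclerosis dividing macrophages and smooth muscle cells are both known sources of these transcripts.

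Levels are the deposited normalised signal in CPM, read counts relative to a scaled library size. A log2 fold change is the knockout mean less the control mean of log2(signal + 1), which makes the change of a low gene look smaller, and errors are SD with n = 3 per group. Between 5904504 and 10072495 reads per library lay behind the listed genes. The targeted gene Rbpj stood at 174, 191 and 200.4 in controls S591, S592 and S594 and at 169, 197 and 212 in knockouts S595, S598 and S599, so the groups overlapped. A whole-arch value does not check a deletion made in the endothelium. Cdh5, the cadherin gene of endothelial cells, was present in every library and also overlapped between the groups (adjusted p = 0.962). Arterial wall transcripts were present in every library, as all 8 smooth muscle markers examined were listed with a summed signal of 12919 to 30998 per library. One library stood apart for the division genes: control S594 held the highest value of all 6 libraries for 37 of the 39, against 22.8% of all listed genes. Values without it are given beside those that it moved most.

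No division gene differed between the groups past the threshold. With limma, 0 of the 39 were called lower and 0 higher at a Benjamini-Hochberg adjusted p of 0.05 (over all genes, 0.0% were called lower and 0.021% were called higher). At an unadjusted p of 0.05, 6 stood lower in the knockout arches (Cdc20, Plk1, Cenpe, Hmmr, Kif20a and Pcna) and 0 stood higher, where 12.0% of all genes were lower and 8.04% higher. The edgeR quasi-likelihood test on recovered reads called 0 members, where it called 0.0% of all genes. At an unadjusted p of 0.05 it had 8 members lower and 0 higher, against 12.1% and 8.13% of all genes. DESeq2 called 0 members, against 4.27% of all genes lower and 1.99% higher, and at an unadjusted p of 0.05 it had 5 lower and 0 higher, against 10.4% and 7.81%. With limma-voom 0 members were called (0.0% of all genes), and at an unadjusted p of 0.05 it had 5 below and 0 above (12.4% and 8.49%). The log2 fold change was negative for 38 of the 39, with Anln the exception, against 52.2% of all genes. The median was −0.28 over the S-phase genes and −0.48 over the mitotic genes, beside −0.02 over all genes. For 10 members every knockout value lay below every control value, a share to be read against 14.2% of all genes, and for 0 did every knockout value lie above (11.3% of all genes).

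Much of that difference came with 1 control library. Without S594, the medians were −0.12 for the S-phase and −0.15 for the mitotic genes, beside −0.03 over all genes. The log2 fold change was then negative for 31 of the 39 (54.4% of all genes), and 2 members, Cdc20 and Cenpe, stood lower at an unadjusted p of 0.05 with 0 on the other side, against 7.25% and 4.44% of all genes. At an adjusted p of 0.05, 0 were called (0.0% of all genes lower, 0.014% higher). Every knockout value lay below every remaining control value for 10 members, against 16.8% of all genes. This count could not fall, because leaving out a control cannot undo such a separation. Leaving out control S591 instead gave 14 members below and 0 above at an unadjusted p of 0.05 (13.5% and 10.6% of all genes), and 0 at an adjusted p (3.29% and 1.41% of all genes). The smallest adjusted p of any member was 0.168 with all libraries and 0.415 without S594, for Cenpe in both. S594 stood above the mean of the other controls by a median of 2.14-fold over the mitotic genes and 1.39-fold over the S-phase genes, against 0.981-fold over all genes. At the other end, knockout S595 held the lowest value of the 6 libraries for 25 of the 39, against 15.3% of all genes.

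**Figure D1:**
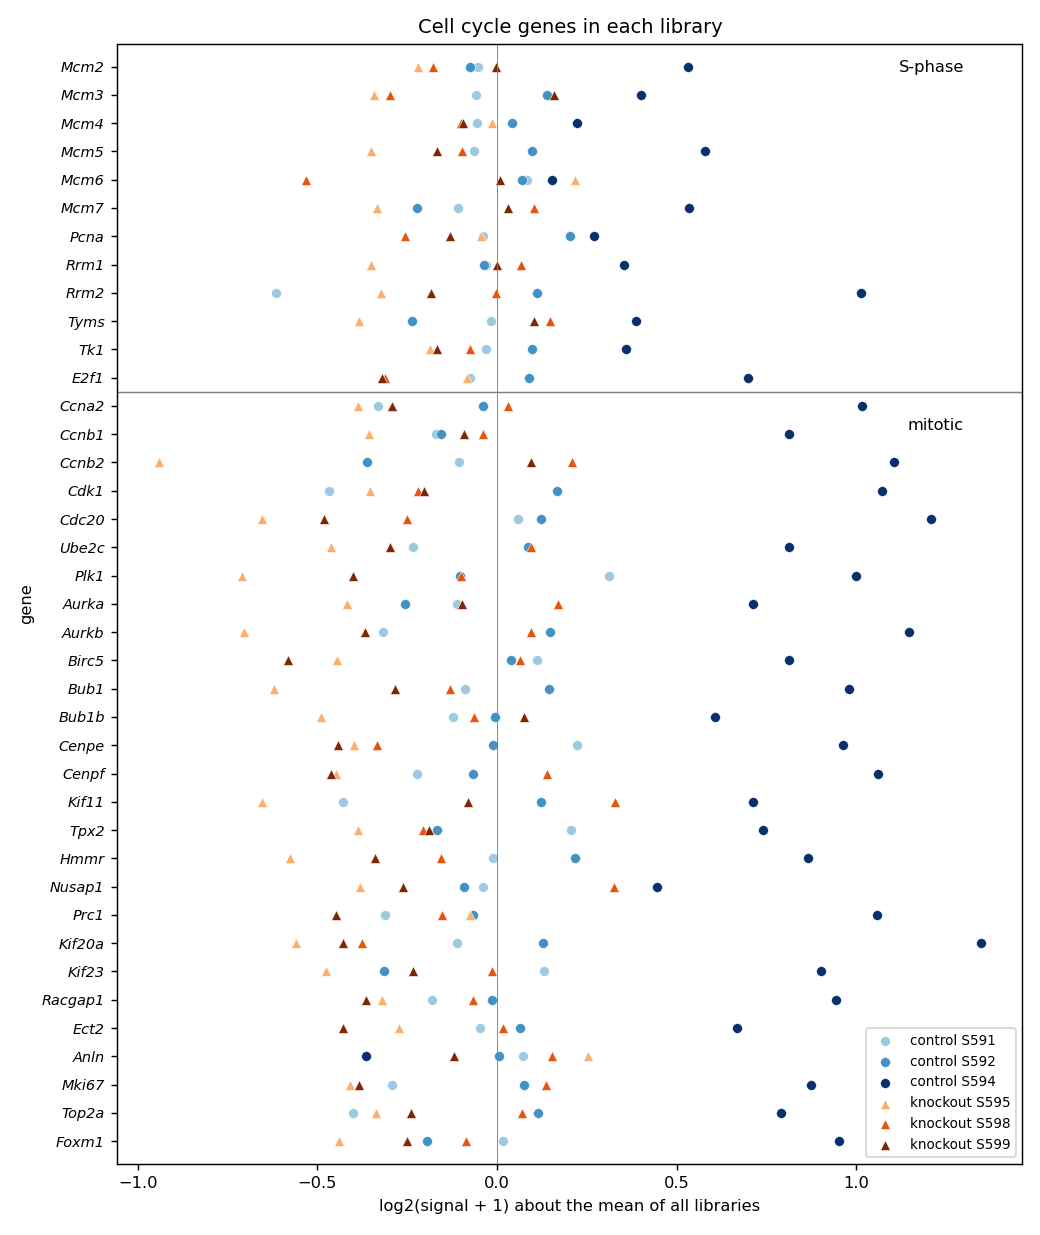
Each row is 1 gene and each symbol 1 library (circles control, triangles knockout), placed by log2(signal + 1) about the mean of that gene over all 6 libraries. Control S594 lies farthest to the right for 37 of the 39 genes and farthest to the left for Anln, while the other controls and the knockouts overlap for most genes.

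The 2 classes of genes differ in the letters of their promoters, which the choice of genes did not use. RefSeq promoter windows (build GRCm38.p6) of 300 bases, from 250 before to 50 after a gene's start, were found for 33 of the 39. They were searched on both strands for TTTGAA (the core of the cell cycle genes homology region, CHR, which MuvB binds), for TTTNGCGC or TTTCCCGC (E2F-type letters), and for CCAAT (the NF-Y box). TTTGAA was in 19 of the 24 windows of mitotic genes (79.2%) and 1 of the 12 windows of S-phase genes (8.33%), against 17.9% of all 32851 windows in the table. E2F-type letters were in 4 of the 12 S-phase windows (33.3%) and 2 of the 24 mitotic windows (8.33%), against 2.39% of all windows. CCAAT was in 9 of the 12 S-phase and 21 of the 24 mitotic windows, against 37.4% of all. Matches can overlap each other, and a gene with several starts has several windows. A match describes letters and not a bound site, and the comparison with all windows was not matched for base composition.

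The 250 bases before the start are shown for 4 mitotic genes with TTTGAA there, for Anln, the member whose values went against the others, and for 2 helicase genes with E2F-type letters, with all 3 motifs in capitals on either strand. They are Cdc20 (chr4:118437344-118437593, minus strand), Ube2c (chr2:164769679-164769928, plus strand), Cdk1 (chr10:69352913-69353162, minus strand), Mki67 (chr7:135716380-135716629, minus strand), Anln (chr9:22389207-22389456, minus strand), Mcm5 (chr8:75109259-75109508, plus strand) and Mcm6 (chr1:128359706-128359955, minus strand).
Cdc20: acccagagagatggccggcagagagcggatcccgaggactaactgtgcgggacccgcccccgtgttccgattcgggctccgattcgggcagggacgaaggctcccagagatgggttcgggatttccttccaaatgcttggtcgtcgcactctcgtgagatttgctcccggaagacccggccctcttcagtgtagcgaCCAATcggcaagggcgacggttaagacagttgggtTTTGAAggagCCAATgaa
Ube2c: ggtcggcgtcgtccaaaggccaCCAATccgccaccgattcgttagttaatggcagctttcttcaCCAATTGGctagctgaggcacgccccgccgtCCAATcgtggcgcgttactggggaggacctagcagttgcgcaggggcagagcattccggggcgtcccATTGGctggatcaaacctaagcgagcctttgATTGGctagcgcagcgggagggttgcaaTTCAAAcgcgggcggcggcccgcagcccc
Cdk1: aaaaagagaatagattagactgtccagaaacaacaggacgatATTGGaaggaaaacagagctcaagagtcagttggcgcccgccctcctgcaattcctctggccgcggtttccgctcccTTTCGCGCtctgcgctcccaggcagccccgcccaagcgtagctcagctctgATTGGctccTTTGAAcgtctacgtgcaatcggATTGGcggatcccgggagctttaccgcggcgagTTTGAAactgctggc
Mki67: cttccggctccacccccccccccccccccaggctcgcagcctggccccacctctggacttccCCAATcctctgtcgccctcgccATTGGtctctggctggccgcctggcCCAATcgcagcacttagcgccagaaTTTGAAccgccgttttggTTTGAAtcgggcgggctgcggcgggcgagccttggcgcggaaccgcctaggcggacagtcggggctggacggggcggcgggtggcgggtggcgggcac
Anln: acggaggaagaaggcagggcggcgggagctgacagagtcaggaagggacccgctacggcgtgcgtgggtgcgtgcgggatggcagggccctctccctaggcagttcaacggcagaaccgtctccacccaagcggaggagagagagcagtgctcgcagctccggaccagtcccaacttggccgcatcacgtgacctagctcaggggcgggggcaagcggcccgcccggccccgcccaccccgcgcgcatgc
Mcm5: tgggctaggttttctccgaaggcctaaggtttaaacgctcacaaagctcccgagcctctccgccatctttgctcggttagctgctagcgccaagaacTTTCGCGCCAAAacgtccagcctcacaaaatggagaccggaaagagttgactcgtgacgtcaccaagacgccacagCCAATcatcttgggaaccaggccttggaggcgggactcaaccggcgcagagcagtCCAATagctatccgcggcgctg
Mcm6: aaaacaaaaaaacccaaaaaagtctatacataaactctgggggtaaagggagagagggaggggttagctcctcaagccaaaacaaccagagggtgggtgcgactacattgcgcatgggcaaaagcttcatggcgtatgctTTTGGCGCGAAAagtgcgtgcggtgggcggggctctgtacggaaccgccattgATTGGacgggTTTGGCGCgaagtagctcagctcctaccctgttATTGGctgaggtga
Cdc20 carries TTTGAA from 18 to 13 bases before the start with a CCAAT on either side of it, and Ube2c carries it on the other strand (TTCAAA) from 29 to 24 bases before. Cdk1 holds both kinds, TTTCGCGC and 2 copies of TTTGAA. In Anln none of the 3 motifs lies in the bases shown, although its whole window has 2 copies of TTTGAA after the start. The whole windows of the mitotic genes Nusap1 and Birc5 had none of the 3, with log2 fold changes of −0.21 and −0.64. A link between motifs and fold changes was not tested. Mcm5 and Mcm6 have E2F-type letters and no TTTGAA.

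Among the S-phase genes, the replicative helicase came first. The MCM complex is a ring of 6 different subunits that is loaded at origins and unwinds DNA at the fork. Mcm5 stood at 11.8, 13.3 and 19.0 in controls S591, S592 and S594 and at 9.51, 11.5 and 10.9 in knockouts S595, S598 and S599. All 3 controls lay above the knockouts, by 0.294 CPM at the nearest pair. The log2 fold change was −0.41 ± 0.20 (SE, limma adjusted p = 0.297). It was −0.22 without S594. Mcm2 stood at 12.3, 12.1 and 19.0 in the controls and at 10.9, 11.2 and 12.8 in the knockouts, and Mcm7 at 15.5, 14.3 and 24.8 against 13.2, 18.2 and 17.2. For both of these the groups overlapped, and the log2 fold change of Mcm7 went from −0.13 to 0.10 without it.

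Mcm6 did not follow S594. It stood at 52.9, 52.4 and 55.6 in the controls and at 58.1, 34.2 and 50.1 in the knockouts, so that the highest value was in knockout S595 and the lowest in knockout S598. The SD of its control values was the smallest of the 6 subunits, with a mean of 53.6 ± 1.71, and its knockout mean was 47.4 ± 12.2. Mcm3 (20.5, 23.7 and 28.6 against 16.7, 17.2 and 24.0) and Mcm4 (21.9, 23.5 and 26.8 against 22.6, 21.3 and 21.3) overlapped between groups. Over the 6 subunits the log2 fold change ran from −0.41 to −0.13, with a median of −0.24, or −0.12 without S594.

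Subunits of 1 complex can be compared with each other only per length, taken here as the joined exons of each gene in GENCODE M21. Per kilobase, the control signal of Mcm6 was 12.3 ± 0.392, the highest of the 6. Mcm3 (8.00 ± 1.33), Mcm4 (6.71 ± 0.692) and Mcm7 (6.15 ± 1.95) followed, and among them the control values of neighbours overlapped. Those of Mcm6 (11.97 to 12.7) lay above the highest of Mcm3 (9.42). Mcm2 (4.30, from 3.60 to 5.64) and Mcm5 (4.26, from 3.42 to 5.50) were the lowest and did not differ beyond their spread. In the knockout arches Mcm6 again had the highest mean per kilobase (10.8 ± 2.78). Its value in S598 (7.81) lay below that of Mcm3 in S599 (7.91), so these subunits overlapped there. Mcm2 (3.45 ± 0.306) and Mcm5 (3.08 ± 0.299) overlapped at the low end.

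Pcna encodes the sliding clamp that holds DNA polymerase on the template and that also serves repair. It stood at 66.7, 79.1 and 82.9 in the controls and at 66.4, 57.2 and 62.5 in the knockouts. The groups did not overlap, but control S591 and knockout S595 differed by 0.295 CPM. Pcna was the S-phase gene with the smallest p, with a log2 fold change of −0.29 (95% interval −0.56 to −0.02, adjusted p = 0.224). Without S594 the log2 fold change was −0.23, with a limma adjusted p of 0.538 and an unadjusted p of 0.121.

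Nucleotide supply genes were mixed. Rrm2, the ribonucleotide reductase subunit made in S phase, stood at 4.35, 7.85 and 15.5 in the controls and at 5.55, 7.18 and 6.21 in the knockouts, and its range among the controls alone spanned that of the knockouts. Its log2 fold change went from −0.34 to 0.08 without S594. Rrm1, the larger and steadier subunit, stood at 32.2, 32.1 and 42.4 against 25.6, 34.6 and 33.0. Thymidylate synthase, encoded by Tyms, stood at 14.3, 12.1 and 19.3 against 10.9, 16.2 and 15.7, with a log2 fold change of −0.09, the nearest to 0 of the 39, and 0.08 without S594. Thymidine kinase, encoded by Tk1, stood at 10.04, 11.1 and 13.4 against 8.90, 9.69 and 9.04. Its groups did not overlap, with a control mean of 11.5 ± 1.75 and a knockout mean of 9.21 ± 0.420 (log2 fold change −0.29, adjusted p = 0.364, or −0.18 without S594).

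E2f1, an activator of S-phase genes and itself an E2F target, stood at 7.73, 8.78 and 13.9 in the controls and at 7.68, 6.41 and 6.37 in the knockouts. Its log2 fold change was −0.48 (95% interval −1.01 to 0.06), the lowest of the S-phase genes, and −0.24 without S594. Its lowest control and highest knockout differed by 0.0443 CPM, less than the signal of 1 read in any library (0.0964 to 0.178 CPM).

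Among the mitotic genes, Mki67 and Top2a were the proliferation genes with the most reads other than Anln. Mki67 encodes the Ki-67 coat protein of mitotic chromosomes and is the usual marker of dividing cells. It stood at 24.8, 32.3 and 56.8 in the controls and at 22.8, 33.7 and 23.2 in the knockouts. Knockout S598 lay above 2 of the 3 controls, and the means were 37.9 ± 16.7 and 26.5 ± 6.20 (log2 fold change −0.44, adjusted p = 0.456). Top2a, the topoisomerase that untangles sister chromatids, stood at 19.1, 27.7 and 44.9 against 20.0, 26.9 and 21.5. For both genes S594 was about the same distance above the other controls, 1.99-fold and 1.92-fold, and without it their log2 fold changes were −0.11 and −0.03.

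Cyclins and their kinase overlapped between the groups. Cdk1, the kinase that drives entry into mitosis, stood at 4.35, 7.31 and 14.6 in the controls and at 4.79, 5.35 and 5.43 in the knockouts. Its A-type partner Ccna2 stood at 7.55, 9.46 and 20.7 against 7.23, 9.98 and 7.79. The B-type cyclins Ccnb1 (5.24, 5.30 and 11.3 against 4.49, 5.83 and 5.58) and Ccnb2 (3.64, 2.88 and 9.72 against 1.598, 4.77 and 4.33) both had S594 highest and S595 lowest. Over these 4 genes the median log2 fold change was −0.43, and it was −0.01 without S594. Ccnb2 had the widest gap of any member between S594 and the other controls, 2.98-fold.

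The anaphase-promoting complex marks cyclin B and securin for destruction. Cdc20, its mitotic activator, stood at 3.998, 4.22 and 10.1 in the controls and at 2.05, 3.04 and 2.44 in the knockouts. All 3 controls lay above all 3 knockouts, and the difference of means was 2.43-fold (6.11 ± 3.46 against 2.51 ± 0.495). The log2 fold change, −0.92 with a 95% interval from −1.69 to −0.16, was the lowest of the 39 (adjusted p = 0.185), and it was −0.55 without S594 (adjusted p = 0.426). Ube2c, the ubiquitin-conjugating enzyme of the same complex, stood at 2.75, 3.69 and 6.75 against 2.21, 3.71 and 2.60, and its groups overlapped.

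Mitotic kinases, checkpoint and kinetochore genes had a median log2 fold change of −0.65 over 8 genes, or −0.31 without S594. Cenpe, the kinesin that carries chromosomes to the spindle equator, stood at 7.20, 5.97 and 12.7 in the controls and at 4.34, 4.58 and 4.17 in the knockouts. The knockout values spanned 0.412 CPM and all lay below the controls (8.62 ± 3.58 against 4.36 ± 0.207, log2 fold change −0.78, adjusted p = 0.168). Without S594 it was −0.50 (adjusted p = 0.415). Plk1, a kinase of spindle assembly and mitotic exit, stood at 4.89, 3.42 and 8.49 against 1.90, 3.42 and 2.60. Knockout S598 and control S592 had the same value at this precision, which is 35 reads in S598 and 25 in S592, and the log2 fold change was −0.81 (adjusted p = 0.215), or −0.51 without S594. Bub1, a spindle checkpoint kinase, stood at 2.75, 3.42 and 6.87 against 1.598, 2.65 and 2.28, with the groups apart by 0.103 CPM. That gap, between control S591 and knockout S598, was less than the signal of 1 read in S591 (0.178 CPM).

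The other 5 of these genes overlapped between the groups. Aurkb, the kinase of the chromosomal passenger complex, stood at 2.40, 3.69 and 8.36 against 1.598, 3.52 and 2.28. Birc5, which encodes survivin of the same complex, stood at 5.06, 4.76 and 8.86 against 3.12, 4.87 and 2.75. Their log2 fold changes were −0.65 and −0.64, and −0.24 and −0.40 without S594. Aurka, the spindle pole kinase, stood at 2.40, 2.08 and 5.02 against 1.75, 3.13 and 2.44, and its sign turned without S594 (−0.23 to 0.07). The checkpoint gene Bub1b and the kinetochore gene Cenpf had log2 fold changes of −0.32 and −0.51, and of −0.09 and −0.11 without S594.

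Spindle genes included a pair with the groups apart. Hmmr, a microtubule-binding protein of the spindle poles that is also known as a hyaluronan receptor, stood at 6.66, 7.98 and 13.1 in the controls and at 4.18, 5.93 and 5.11 in the knockouts (log2 fold change −0.71, adjusted p = 0.189). Without S594 it was −0.46 (adjusted p = 0.467). Tpx2, the activator of Aurora A on the spindle, stood at 13.2, 9.99 and 19.6 against 8.45, 9.69 and 9.83, with its groups apart by 0.162 CPM. Kif11, the motor that separates the spindle poles, stood at 5.77, 8.92 and 13.9 against 4.79, 10.5 and 7.63. For Kif11 and for Nusap1, a spindle-stabilising protein (5.95, 5.70 and 8.73 against 4.49, 7.95 and 4.95), knockout S598 lay above both of the other controls.

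Cytokinesis genes held both a member near the low end of the 39 and the 1 member with a positive value. Kif20a, a kinesin of the central spindle, stood at 5.24, 6.37 and 16.2 in the controls and at 3.58, 4.19 and 4.01 in the knockouts. Its groups were apart, and the means differed 2.36-fold (9.26 ± 6.01 against 3.93 ± 0.317). The log2 fold change was −0.91 (adjusted p = 0.224), or −0.46 without S594. Prc1, which bundles the microtubules of the midzone, stood at 9.86, 11.9 and 27.1 against 11.8, 11.1 and 8.89. The midzone partners Kif23 and Racgap1 had log2 fold changes of −0.48 and −0.50, and Ect2, the exchange factor they recruit to start the furrow, had −0.46. All 3 overlapped between the groups and lay between −0.15 and −0.24 without S594.

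Anln encodes anillin, a scaffold that binds actin, myosin and septins at the cleavage furrow. It stood at 85.2, 81.2 and 62.6 in the controls and at 96.7, 90.1 and 74.5 in the knockouts. S594 was the lowest library and S595 the highest. Of the other 26 mitotic genes, S594 was the highest library for 26 and S595 the lowest for 18. Its log2 fold change was 0.19 (95% interval −0.16 to 0.54, adjusted p = 0.523), and the groups overlapped. The summed smooth muscle markers also had S594 lowest (12919), with S595 (30998) and S598 (30692) near each other at the top, and S598 was the highest library for 5 of the 8 markers. The part of cell makeup in the values of Anln was not tested.

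Foxm1, the transcription factor that joins the MuvB complex at late cell cycle promoters, stood at 8.62, 7.31 and 17.4 in the controls and at 6.01, 7.95 and 6.999 in the knockouts. Its log2 fold change of −0.52 (adjusted p = 0.380) lay near the median of the mitotic genes and was −0.17 without S594.

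**Figure D2:**
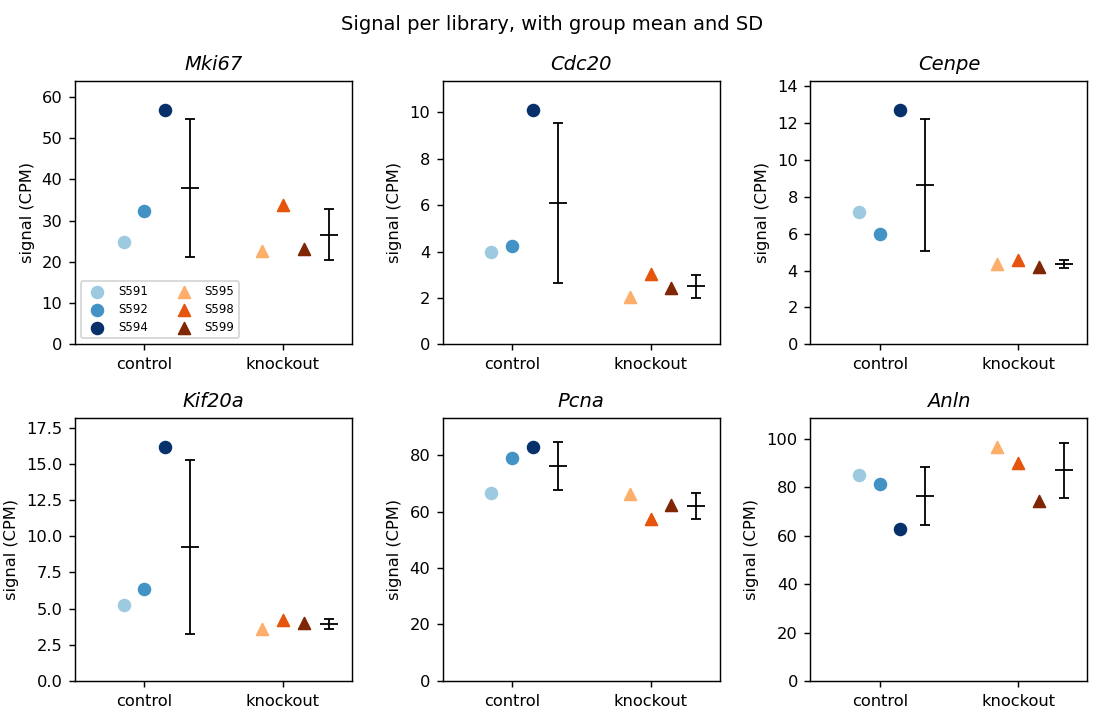
Signal in CPM in each library for Mki67, Cdc20, Cenpe, Kif20a, Pcna and Anln, with symbols for libraries (circles control, triangles knockout) and a bar for the group mean and SD (n = 3). Control S594 is the highest point for the first 5 genes and the lowest for Anln, and all knockout points of Cdc20, Cenpe, Kif20a and Pcna lie below all control points.

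**Figure D3:**
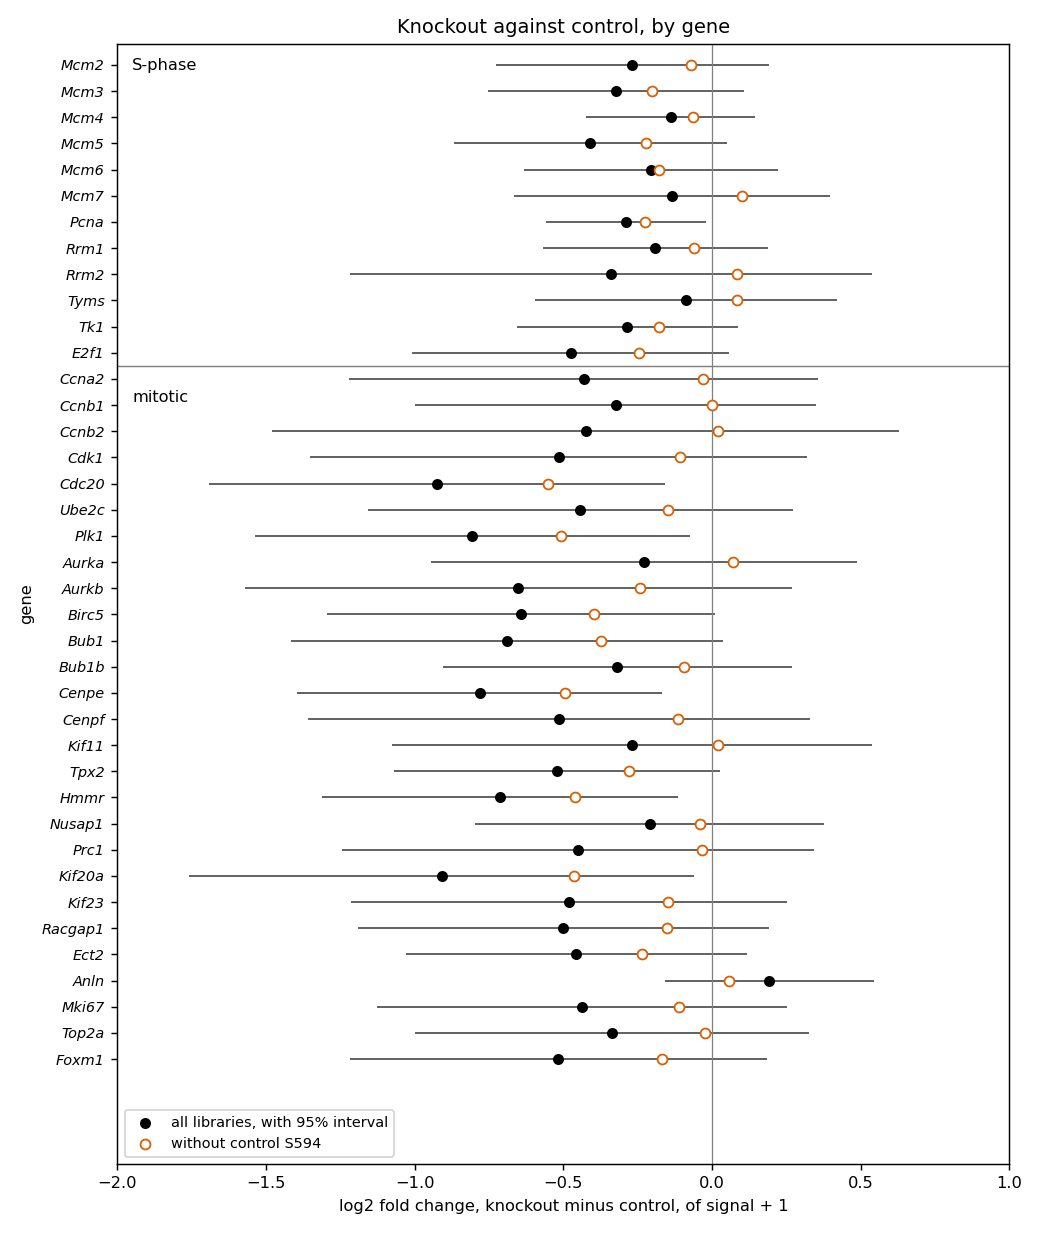
Log2 fold change (knockout minus control, of signal + 1) of each gene with all 6 libraries (filled, with the 95% interval of limma) and without control S594 (open). Cdc20 and Kif20a are farthest to the left at −0.92 and −0.91, and the open symbols lie closer to 0 than the filled ones.

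Low read numbers limited 8 members, which averaged under 5 CPM and held between 10 and 81 reads per library. Counting error alone can be read from summed reads adjusted for depth, as a ratio of knockout to control with an exact 95% interval, which covers counting error only and not the spread between animals. Cdc20 had 134 control and 59 knockout reads, a ratio of 0.400 (0.289 to 0.547). It was 0.625 without S594, with an interval from 0.424 to 0.924 that still lay below 1. For Plk1 (0.477), Bub1 (0.487), Aurkb (0.509), Birc5 (0.590), Ube2c (0.643) and Ccnb2 (0.656) the interval lay below 1 with all libraries and reached 1 without S594. For Aurka, with 68 and 58 reads, the ratio was 0.774 (0.536 to 1.12), and a difference was not detectable at this depth.

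Other genes of the same pathways were taken from lists by function. Of 37 further replication fork and origin genes, all listed, 0 passed the adjusted threshold. At an unadjusted p of 0.05, 2 stood lower and 1 higher, against 12.0% and 8.04% of all genes. The median log2 fold change was −0.10 (−0.01 without S594). The ligase of lagging-strand synthesis, Lig1, stood at 15.4, 16.2 and 18.8 against 11.8, 12.3 and 11.6 (log2 fold change −0.46, adjusted p = 0.142). The catalytic subunit of DNA polymerase alpha, Pola1, was on the other side, at 17.1, 14.8 and 15.9 against 18.8, 21.3 and 24.0 (0.39, adjusted p = 0.182). Of 45 further mitosis genes 44 were listed. Their median was −0.40 (−0.13 without S594), 0 passed the adjusted threshold, and 4 stood lower at an unadjusted p of 0.05 (12.0% of all genes) with 0 on the other side. S594 was the highest library for 37 of the 44 (22.8% of all genes). The mitotic kinase gene Pbk (adjusted p = 0.188) and the separase gene Espl1 (adjusted p = 0.202) had the smallest p, with log2 fold changes of −0.68 and −0.73, or −0.46 and −0.44 without S594.

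Genes of the G1 decision had list medians near 0. Over the 9 G1 cyclins and kinases the median log2 fold change was −0.003 (0.08 without S594). Over the 5 CDK inhibitors listed of 7 it was 0.03 (−0.07 without S594), with 0 called in either list. Ccnd1, the cyclin D1 that growth signals induce, stood at 33.5, 50.2 and 50.1 in the controls and at 21.4, 24.5 and 29.96 in the knockouts. Its groups were apart, and the log2 fold change was −0.78 (adjusted p = 0.121) and −0.69 without S594. The kinase gene Cdk4 had −0.23 (adjusted p = 0.345), or −0.13 without S594. The inhibitor gene Cdkn1a, a p53 target that encodes p21, was also lower in all 3 knockouts, at 50.7, 66.99 and 69.1 against 44.1, 41.7 and 32.0 (−0.65, adjusted p = 0.121). Cdkn1b, which encodes p27, had 0.33 (adjusted p = 0.234).

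The RB, E2F and DREAM regulators, 18 genes that were all listed, had a median of −0.01 (0.04 without S594). Of them 0 were called, and at an unadjusted p of 0.05 there was 1 below and there were 3 above (12.0% and 8.04% of all genes). E2f3, another activator E2F, had tight groups, at 19.5, 20.1 and 20.6 in the controls and at 12.9, 12.7 and 13.1 in the knockouts. Its log2 fold change was −0.60 (adjusted p = 0.107) and stayed at −0.58 without S594. Tfdp2, a dimer partner of E2F, stood at 42.9, 36.8 and 32.9 against 46.8, 60.4 and 60.9 (0.56, adjusted p = 0.122).

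Markers of cell types differed between the same libraries. All 15 macrophage markers examined were listed, with a summed signal of 7255 to 11935 in the controls and 3017 to 7066 in the knockouts. S594 held the highest macrophage sum of the 6 libraries and S598 the lowest. Smooth muscle markers ran the other way, from 12919 to 22373 in the controls and from 22587 to 30998 in the knockouts. The 7 fibroblast markers summed to 11825 to 19325 in the controls, highest in S594, and to 8454 to 11450 in the knockouts. Of 7 epithelial markers 4 were listed, and they summed to 14.1 to 15.8 in the controls and 73.9 to 105 in the knockouts. The part of macrophage, smooth muscle, fibroblast or epithelial content in the values of the division genes was not tested.

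T cell and thymocyte markers stood apart in 2 knockout libraries. Of 21 T cell and thymocyte markers 18 were listed (Rag2, Ptcra and Lef1 were not), and they summed to 55.8 to 67.3 in the controls, 50.1 in S595, 357 in S598 and 144 in S599. S598 was the highest library for 0 of the 39 division genes (17.7% of all genes), a count limited by S594, which was highest for 37. Among knockouts S595, S598 and S599, the mitotic genes averaged −0.44, −0.01 and −0.28 in log2(signal + 1) about the mean of all libraries. The S-phase genes averaged −0.20, −0.13 and −0.06. The part of thymocyte content in the values of the division genes was not tested. Without S598 the median log2 fold change was −0.25 for the S-phase and −0.59 for the mitotic genes. With both S598 and S599 left out, the fit takes the spread of S595 from the control arches, and the medians were −0.38 and −0.68. The 10 endothelial markers summed to 1192 to 1232 in the controls and 944 to 1437 in the knockouts. Of 9 B cell markers 5 were listed, and they summed to 56.8 to 101 in the controls and 34.4 to 51.7 in the knockouts. Single B cell markers were mixed, with a negative log2 fold change for 3 and a positive one for 2 (52.2% of all genes were negative). Their median was −0.17. Of 7 red blood cell markers 6 were listed, and they summed to 289 to 443 in the controls. In knockouts S595, S598 and S599 the red blood cell sums were 121, 1109 and 1689. The part of these cells in the values of the division genes was not tested.

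**Figure D4:**
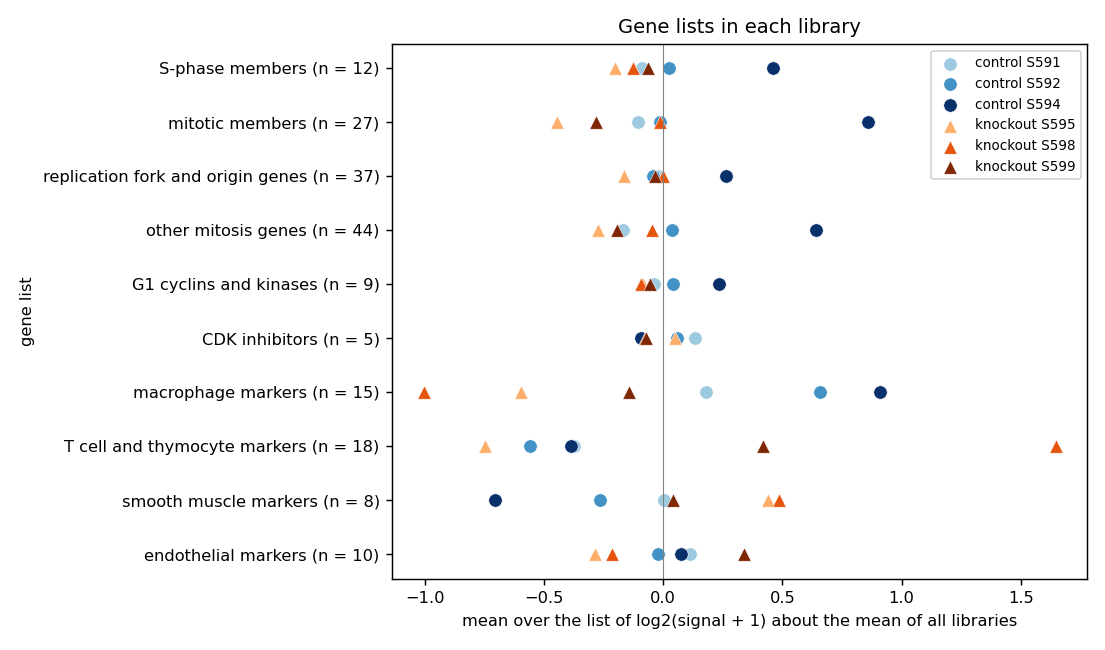
Each row is a gene list and each symbol 1 library (circles control, triangles knockout), placed by the mean over the list of log2(signal + 1) about the mean of all 6 libraries. S594 is highest for the S-phase (0.46) and mitotic (0.86) genes and for the macrophage markers (0.91), and lowest for the smooth muscle markers (−0.71), while S598 is highest for the T cell and thymocyte markers (1.65) and near 0 for the mitotic genes (−0.01).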

How the data were processed

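PolyA RNA was sequenced from TruSeq libraries, per the labels' protocols, with 3 mice per genotype. The submitters' processing notes name CASAVA 1.8, cutadapt 1.6.1, RSEM 1.16, Bowtie 0.12.7, limma, edgeR and the build NCBIM37, without roles. Neither the annotation nor a strand setting is given in the sources used here. The authors deposited normalised signal on a linear scale. Its values equal (reads + 0.5) in CPM of TMM-scaled library sizes, so whole reads were recovered from 100% of values (tolerance 0.01). Libraries were assigned to groups by their column names. Symbols came from GENCODE M21 by Ensembl identifier, for 13828 of 14298 genes. Log2(signal + 1) was tested between genotypes by limma 3.58.1 (R 4.3.3, trended variance, two-sided), adjusted by Benjamini-Hochberg over all 14298 genes, after a filter of 1 CPM in 3 libraries that removed 0 genes. The limma test was also run on simulated counts. Those had the same dispersion for every gene and no library set apart, so that run does not cover a control such as S594. On the reads, edgeR 4.0.16 called 0 genes, limma-voom 0 and DESeq2 1.42.0 894, and limma on the signal called 3. The members and lists were chosen with earlier results of these data known. Every member is named, with Rbpj and the 2 genes of smallest p of each further pathway list, and marker lists are given as sums.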

Additional observations from a re-analysis of the deposited data

How the results depend on the processing

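No paired analysis was possible because the columns carry library numbers that match no replicate number in the titles. The count of members called at 0.05 was 0 under every alternative run, namely other pseudocounts, filters, scalings, variance models and tests, each library left out, and S598 and S599 left out together. At a threshold of 0.1 it was 0 with limma on all libraries. Hmmr (limma adjusted p = 0.0933), Pcna (0.0971) and Kif20a (0.0983) passed 0.1 without S591. Kif20a also passed it with DESeq2 on all libraries (0.0992). With 1 library left out, the median log2 fold change ran from −0.37 to −0.12 over the S-phase genes and from −0.69 to −0.15 over the mitotic genes, the value nearest 0 being without control S594 in both and the lowest without control S591. The other settings with all libraries gave −0.31 to −0.22 and −0.64 to −0.42. At 0.05, limma called 671 of all genes without S591, against 3 with all libraries, and DESeq2 called 894 with all libraries. With at least 5 CPM in 3 libraries 29 of the 39 members were left. Single genes turned sign with a library left out, and none of these values was called. The range was −0.49 to 0.00097 for Ccnb1, −0.71 to 0.020 for Ccnb2, −0.41 to 0.069 for Aurka, −0.55 to 0.019 for Kif11, −0.28 to 0.10 for Mcm7, −0.73 to 0.083 for Rrm2 and −0.23 to 0.084 for Tyms, each highest without S594. Tyms also turned without S595. Mcm6 ran from −0.36 without S595 to 0.0093 without S598, and was 0.11 without both S598 and S599. The causes were not tested. Depth limits the genes under 5 CPM most.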

Other observations

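Of the RB, E2F and DREAM regulators, 3 that are themselves E2F targets were picked out after their values were seen. Mybl2, which encodes B-Myb of the MuvB complex, stood at 1.33, 1.54 and 4.52 in controls S591, S592 and S594 and at 2.21, 2.55 and 2.12 in knockouts S595, S598 and S599. S594 was again the highest library, yet all 3 knockouts lay above the other controls, and the log2 fold change was 0.04 (limma adjusted p = 0.958), or 0.43 without S594 (adjusted p = 0.512). The repressor E2f8 stood at 2.04, 3.82 and 5.39 against 2.21, 2.46 and 2.12, and its relative E2f7 at 1.87, 2.08 and 3.41 against 1.45, 2.07 and 1.81. Neither passed the threshold (adjusted p = 0.397 and 0.544 with all libraries).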
